A study of Mus musculus with 6 samples.

Results

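Narrow peaks with highly significant summits were taken from the accessible regions of wild-type (WT) and Lap2alpha knockout (KO) mouse dermal fibroblasts. They were chosen by column 8 of each peak list, the −log10 p-value at the summit, and by width: an autosomal peak belonged to the set when it spanned at most 700 bp and its summit −log10 p lay in the top 25% of its own list, here called a high summit. In the WT list 3308 of 102175 autosomal peaks met the rule, or 3.24%, and in the KO list 2590 of 95112 did, or 2.72%. Both lists together gave 5898 narrow high-summit peaks among 204204 peaks on every chromosome. The number in KO was 78.3% of that in WT, while the KO list as a whole held 93.1% of the WT number of autosomal peaks.

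The study compared chromatin accessibility by ATAC-seq in a cultured mouse line labelled as dermal fibroblast, with 3 WT and 3 Lap2alpha KO libraries. The cells grew in DMEM with fetal calf serum and antibiotics, without any other treatment, and the labels do not say whether the libraries came from separate animals, clones or cultures, nor the sex or age of the animals. Lap2alpha is the nucleoplasmic isoform of the Tmpo gene product that binds A-type lamins and the retinoblastoma protein. The authors deposited 1 combined peak list per genotype, so no value below has a replicate error. Intervals in brackets are 95% exact binomial intervals for shares and order-statistic intervals for medians, and they cover counting error only.

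In ATAC-seq the transposase Tn5 inserts adapters where DNA is free of nucleosomes, and a peak marks a stretch with many insertions. A narrow peak is typical of a single nucleosome-free element such as an enhancer, an insulator or a compact promoter, while active promoters with CpG islands often give wide peaks. AP-1 factors such as Fos and Jun occupy many fibroblast enhancers, CTCF marks insulators and loop anchors, and ETS, NF-Y and SP/KLF factors are common at promoters.

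Letters around the summits could be shown where a summit lay in an annotated promoter, the 250 bases before to 50 after a gene's start in RefSeq (GRCm38.p6). Summits of the WT set fell in 127 such promoters and those of the KO set in 130, of which 46 were the same, making 211 in all. The stretches printed lie before the gene's start and are written on the gene's strand. The first group shows promoters held in both lists with an AP-1 motif, TGANTCA on either strand, given in capitals. AP-1 is shown because its share, given below, differed between promoters under narrow and wide peaks.
Dclk1 upstream (chr3:55461668-55461727, plus strand): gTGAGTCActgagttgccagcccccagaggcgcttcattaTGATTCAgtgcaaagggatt
Smim14 upstream (chr5:65484062-65484145, minus strand): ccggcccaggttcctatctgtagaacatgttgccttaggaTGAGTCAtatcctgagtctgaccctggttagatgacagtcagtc
Zeb2 upstream (chr2:45110363-45110449, minus strand): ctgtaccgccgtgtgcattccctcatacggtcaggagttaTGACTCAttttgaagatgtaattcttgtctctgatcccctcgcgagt
Gm12092 upstream (chr11:29645603-29645689, minus strand): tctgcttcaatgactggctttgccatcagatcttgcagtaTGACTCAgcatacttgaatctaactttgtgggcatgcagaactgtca

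Dclk1 encodes a doublecortin-like kinase and Zeb2 a zinc-finger repressor of epithelial genes. At Dclk1, a WT peak of 675 bp had its summit 19 bp from the nearer motif, at −log10 p 17.5, and the KO summit lay 13 bp away at 16.2. At Zeb2 the distances were 4 bp in WT and 19 bp in KO, with summit −log10 p of 13.4 and 13.8. At Smim14 they were 52 and 18 bp, and here KO had the higher summit, 17.0 against 15.1. At Gm12092 the summits lay 6 bp (WT) and 15 bp (KO) from the motif. Mrpl33, also held in both lists with an AP-1 motif, is not printed. Its summits lay farther off, 97 bp (WT) and 94 bp (KO) from the motif.

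The second group shows promoters held in both lists with the ETS motif CCGGAAG or its reverse complement in capitals. They are shown because ETS letters were common under narrow high-summit peaks and rare under narrow peaks of lower significance.
Zkscan1 upstream (chr5:138085027-138085083, plus strand): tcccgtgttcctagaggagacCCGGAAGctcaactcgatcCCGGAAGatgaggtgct
Mapkap1 upstream (chr2:34406803-34406850, plus strand): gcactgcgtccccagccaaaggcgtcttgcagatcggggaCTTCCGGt
Pcbp2 upstream (chr15:102470442-102470528, plus strand): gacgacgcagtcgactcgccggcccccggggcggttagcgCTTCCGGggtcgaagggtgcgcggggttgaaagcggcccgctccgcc

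Zkscan1 carried 2 copies of the motif in this stretch, and its summits lay 43 bp (WT) and 12 bp (KO) from the copy measured. At Mapkap1, which encodes a subunit of mTOR complex 2, the summit lay 3 bp from the motif in both lists. Pcbp2, a poly(C)-binding protein gene, had the highest summits of these promoters, −log10 p 17.8 in WT and 19.1 in KO. Its motif lay 83 and 84 bp away. Not printed are Ccdc181, with the motif 121 bp (WT) and 129 bp (KO) from the summits, and Gm52283, with 125 and 96 bp. At Mcm3ap and Dot1l, also not printed, the distances were 6 and 75 bp and 9 and 69 bp.

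The last group shows the CTCF core, here CCA, any 2 bases, AG, any 2 bases, GGC on either strand, in capitals. It is shown because CTCF sites are a known source of narrow accessible elements.
Otud3 upstream (chr4:138914052-138914143, minus strand): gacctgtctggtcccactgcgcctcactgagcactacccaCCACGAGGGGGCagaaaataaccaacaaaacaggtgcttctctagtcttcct
C330018A13Rik upstream (chr5:116123479-116123570, plus strand): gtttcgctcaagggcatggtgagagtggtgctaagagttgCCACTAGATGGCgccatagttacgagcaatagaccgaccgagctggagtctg
Gm41429 upstream (chr16:18696562-18696653, plus strand): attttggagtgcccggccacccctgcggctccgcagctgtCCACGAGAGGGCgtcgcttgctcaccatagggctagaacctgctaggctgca
Gm34552 upstream (chr12:74317163-74317234, minus strand): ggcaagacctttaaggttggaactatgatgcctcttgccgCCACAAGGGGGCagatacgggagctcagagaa

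The WT summit lay 0.5 bp from the motif's centre at C330018A13Rik, 7.5 bp at Gm41429 and 12.5 bp at Otud3. These 3 promoters were held by a narrow high-summit peak in WT only. Each of the 3 WT peaks still overlapped a KO peak, whose summit percentile in KO was 60.4, 78.3 and 84.1 in that order. Gm34552 was held in both lists, with the motif 56.5 bp (WT) and 73.5 bp (KO) from the summit. The other CTCF letters lay farther off in several promoters, 180.5 bp from the WT summit at Senp2, 182.5 bp from the KO summit at Tmub1, and 96.5 bp (WT) and 111.5 bp (KO) at Unc119b. In all, 5 of 8 WT promoters (62.5%) and 0 of 3 KO promoters with the core had it within 50 bp of the summit. Over promoters with the core under all autosomal peaks the share was 38.9% in WT and 39.4% in KO. Under narrow peaks of lower significance it was 63.2% and 72.6%. With only 3 KO promoters, the lists cannot be compared on this. A match of letters is a description and not a bound site.

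AP-1 letters were found in 23 of the 127 WT promoters, 18.1% (11.8 to 25.9), and in 19 of the 130 KO promoters, 14.6% (9.03 to 21.9). Among all 31365 autosomal promoters 7.85% held the motif. Under all autosomal peaks the share was 7.24% (WT) and 6.71% (KO). Promoters under wide high-summit peaks held it in 5.81% (WT) and 5.27% (KO), and both of these shares lie below the intervals of the narrow high-summit peaks. Promoters under narrow lower-summit peaks held it in 16.4% and 15.5%, inside those intervals, so by AP-1 letters the set lay with the other narrow peaks. Where present, the AP-1 motif lay a median of 31 bp (WT) and 34 bp (KO) from the summit. Under wide high-summit peaks the medians were 52 and 53 bp, and under narrow lower-summit peaks 26 and 35 bp. The motif was within 50 bp of the summit in 16 of 23 promoters (69.6%) and 13 of 19 (68.4%). Over promoters under all autosomal peaks these shares were 57.3% and 52.8%, and under narrow lower-summit peaks 73.6% and 63.6%. The other narrow peaks thus had the motif similarly close.

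ETS letters showed another order. They were found in 19.7% of the WT promoters (13.2 to 27.7, 25 promoters) and 30.8% of the KO promoters (23.0 to 39.5, 40 promoters), against 9% of all promoters. Under narrow lower-summit peaks the share was 6.19% and 7.17%, and under wide high-summit peaks 25.6% and 25.9%. Under all autosomal peaks it was 21.9% and 22.1%, inside the WT interval of the set and just below the KO interval. The CRE motif TGACGTCA, bound by CREB and ATF factors, was found in 5.51% (7 WT promoters) and 4.62% (6 KO promoters), with 1.83% of all promoters. Wide high-summit peaks had 4.75% and 4.62%, and all autosomal peaks 4.22% and 4.30%. On these few promoters the KO interval, 1.71 to 9.78, included the share of all promoters. The WT interval began at 2.24, just above that share. The NF-Y letters CCAAT were found in 40.9% and 50.8% (all promoters 37.3%), and the SP/KLF letters GGGCGG in 46.5% and 56.9% (all promoters 36%). Under all autosomal peaks the NF-Y share was 43.5% and 43.7%, inside the intervals of the set. The SP/KLF share there was 63.9% and 64.4%, above the WT interval and inside the KO interval. Under wide high-summit peaks the SP/KLF share was 66.9% and 66.8%, above the intervals of both narrow sets. Median GC content was 58.0% (WT) and 56.0% (KO) for these promoters, between the 53.0% of all promoters and the 61.0% of those under wide high-summit peaks, and its part in the motif shares was not tested.

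The CTCF core was found in 8 WT promoters, 6.30% (2.76 to 12.0), and in 3 KO promoters, 2.31%, with 2.47% among all promoters. The WT and KO shares could not be told apart at these counts. Narrow lower-summit peaks held it in 8.41% and 6.73%, more often than wide high-summit peaks at 3.27% and 3.51%. All autosomal peaks had 4.04% and 4.05%. The E-box CACGTG was found in 9.45% and 10.8% (all promoters 7.14%), the ZNF143 letters ACTACAA in 3.94% and 8.46% (3.32%), YY1 (AAGATGGC) in 3.15% and 5.38% (2.74%), and the NRF1 motif in 1.57% and 0.77% (0.963%). Under all autosomal peaks the E-box share was 9.99% and 10.2%, and the ZNF143 share 5.25% and 5.21%. YY1 there had 5.25% and 5.31%, and NRF1 2.11% and 2.21%. The SP/KLF and ETS letters can overlap, and the AP-1 and CRE letters share most of their bases, so these shares are not independent. The 127 WT promoters came from 118 peaks and the 130 KO promoters from 117, since 1 peak can lie in several promoters.

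**Figure D1:**
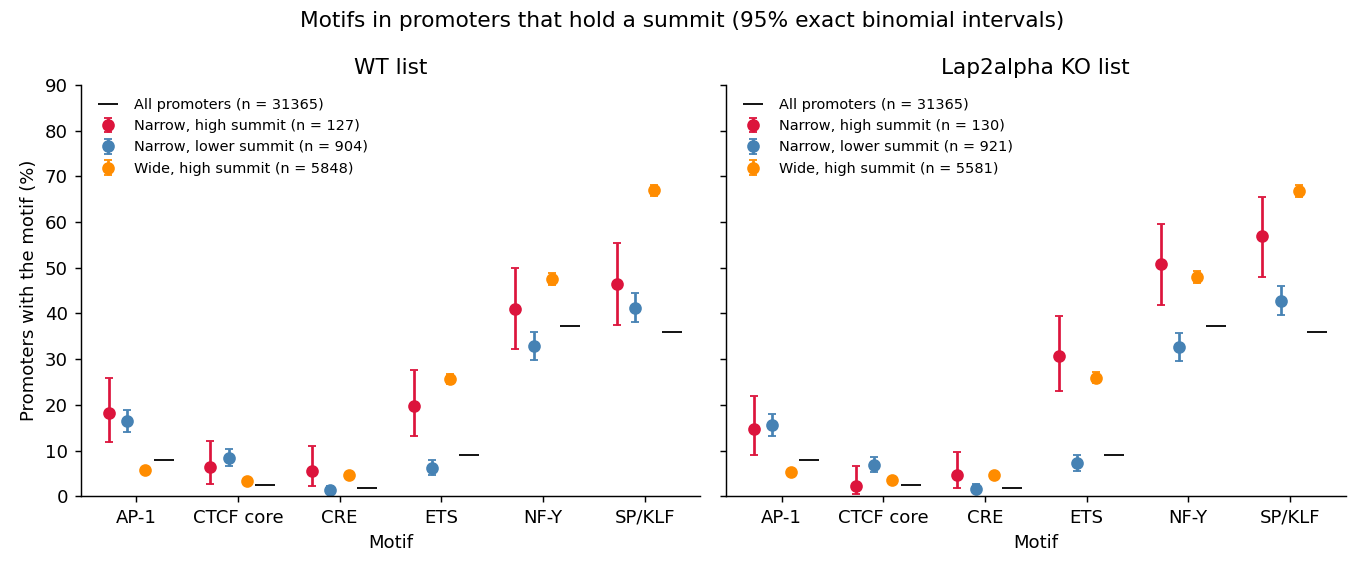
Share of promoters with 6 motifs (vertical axis, %) for promoters holding the summit of a narrow high-summit peak, a narrow lower-summit peak or a wide high-summit peak in each list; bars are 95% exact binomial intervals and dashes mark all 31365 promoters. For AP-1 the narrow high-summit peaks sit at 18.1% and 14.6%, with the other narrow peaks, and for ETS at 19.7% and 30.8%, nearer the wide peaks.

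The values that the rule used describe the set and test nothing. Its summit threshold was a −log10 p of 13.3 in WT and 13.6 in KO. The median width was 594 bp in WT and 597 bp in KO, from 187 and 180 bp up to the limit. The median summit −log10 p was 14.2 and 14.4. Narrow lower-summit peaks had median widths of 289 bp (WT) and 309 bp (KO), so no contrast with them here is at equal width. At the boundary in WT, a 605 bp peak beside Sorl1 was just inside (13.3086) and a 648 bp peak beside Commd7 just outside (13.3084). At the width limit, a 700 bp peak beside Cldn4 was kept, and a 701 bp peak 16 bp from an end of Gtf3c3 was not. In KO, a 700 bp peak within Chd8 was kept and a 701 bp peak within Adamts2 was not. Signal, the area measure in column 7, was lower for its rank: its percentile had a median of 71.7 (WT) and 71.1 (KO), with 88.6 and 88.3 among wide high-summit peaks. With the WT threshold applied to both lists, an alternative chosen after seeing the data, 3194 KO peaks met the rule instead of 2590, so most of the difference in number went with the threshold.

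**Figure D2:**
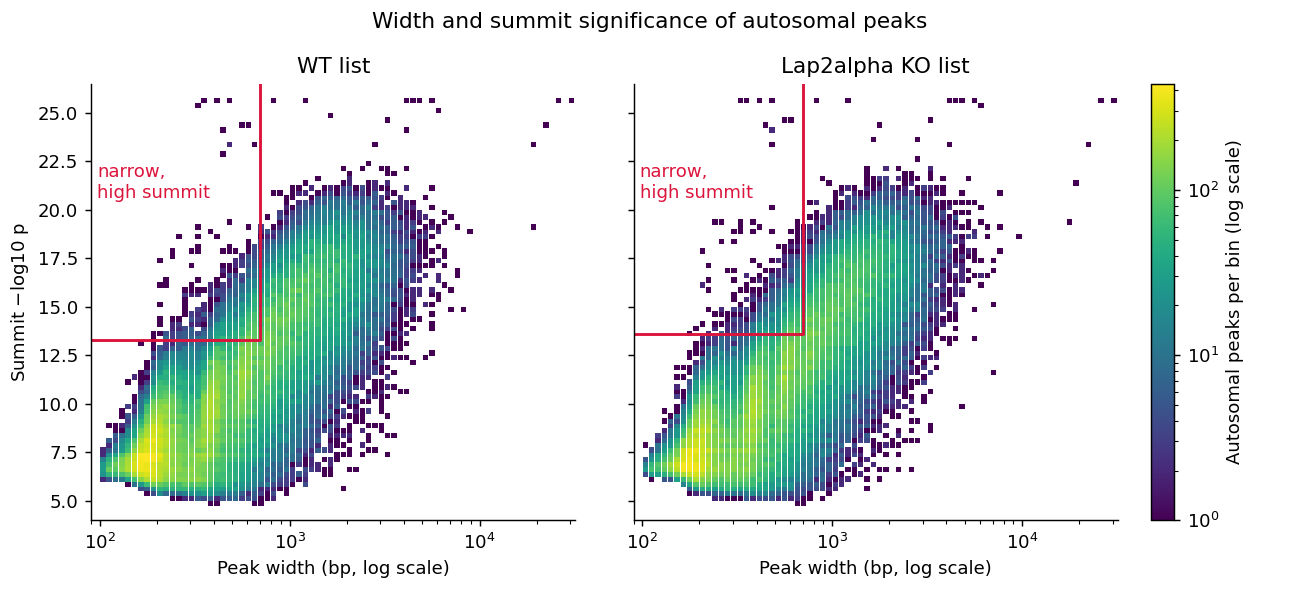
Autosomal peaks of each list by width (horizontal axis, bp, log scale) and summit −log10 p (vertical axis), coloured by the number of peaks per bin, with red lines at the limits of the rule. The narrow high-summit peaks, 3308 in WT and 2590 in KO, are the upper left corner, most of them close to both limits, with a few far above 22.

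Most narrow high-summit peaks lay away from gene ends. In WT 240 of 3308 summits, 7.26% (6.39 to 8.19), and in KO 222 of 2590, 8.57% (7.52 to 9.72), were within 1 kb of either end of a protein-coding gene. Among all autosomal peaks the share was 13.1% in WT and 13.5% in KO, and among wide high-summit peaks 32.0% and 31.9%. Narrow lower-summit peaks were closest to the set, at 5.95% and 6.09%, below its intervals in both lists. Gene bodies held 43.7% (WT) and 45.1% (KO), and 49.1% and 46.3% lay between genes, against 33.8% and 33.5% of wide high-summit peaks. All autosomal peaks had 43.7% and 44.1% in gene bodies, close to the set, and 43.2% and 42.5% between genes. Narrow lower-summit peaks had 46.8% and 46.2% between genes, the KO value inside the interval of the set (44.4 to 48.3).

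The median distance from summit to the nearest gene end was 20774 bp (19153 to 22019) in WT and 17094.5 bp (15629 to 18739) in KO. All autosomal peaks had medians of 15207 and 15114 bp, and wide high-summit peaks of 7399 and 7594 bp. Narrow lower-summit peaks had 18699.5 and 18440 bp, below the WT interval and inside the KO interval. A distance over 100 kb was found for 18.2% of the WT set (all peaks 14.9%) and 15.2% of the KO set (all peaks 14.4%). In WT the median rose from 17347 bp in the lowest quartile of the set by summit p to 25287 bp in the highest. In KO it was 15266 bp in the lowest and 19045.5 bp in the highest, with 16299 bp in the quartile just under the highest.

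Start sites gave a finer view. Of the 3221 WT peaks on the 18 autosomes with start sites in the promoter table, 136 had a summit within 250 bp of a start, 4.22% (3.55 to 4.98), and of 2484 KO peaks 132 did, 5.31% (4.46 to 6.27). The shares among all peaks were 7.71% and 8.19%. Narrow lower-summit peaks had 1.64% and 1.79%, and wide high-summit peaks 24.8% and 25.3%. By this measure narrow high-summit peaks were at starts more often than other narrow peaks and far less often than wide ones.

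**Figure D3:**
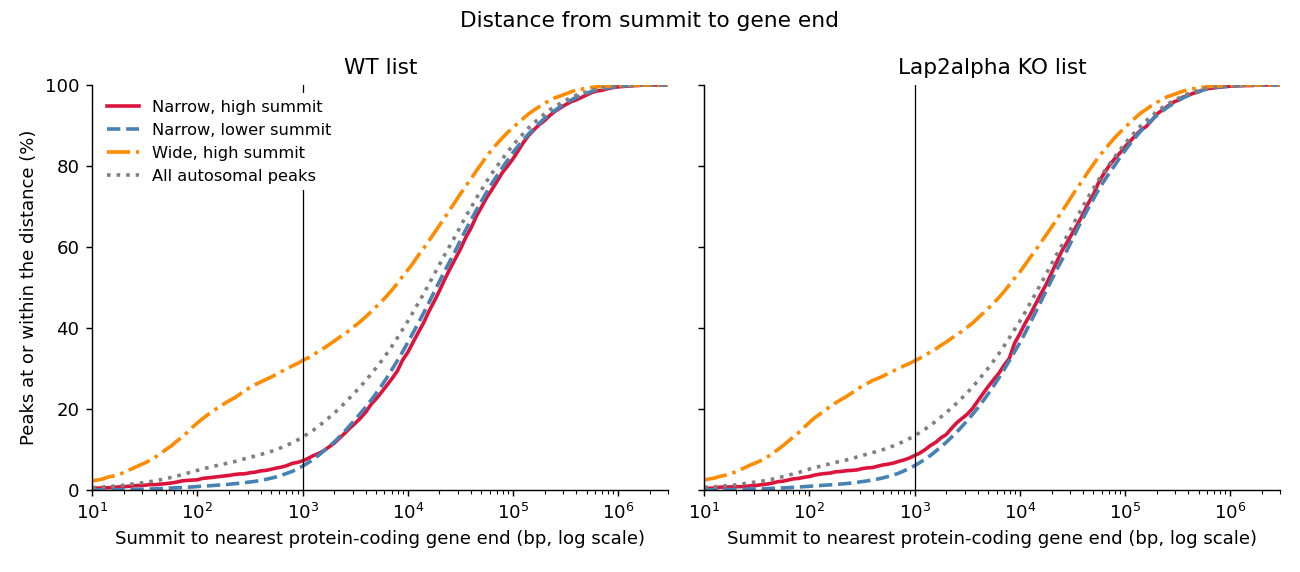
Cumulative share of peaks (vertical axis, %) by distance from summit to the nearest protein-coding gene end (horizontal axis, bp, log scale) for each list, with a line at 1 kb. Narrow high-summit peaks reach 7.26% (WT) and 8.57% (KO) at 1 kb, just above other narrow peaks, while wide high-summit peaks reach 32.0% and 31.9%.

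Some narrow high-summit peaks lay in very large gene deserts. The farthest in both lists was at chr1:102628166-102628372, a WT peak of 207 bp, 2137662 bp from a protein-coding gene end. Its summit −log10 p was 16.2 in WT and 16.1 in KO, with the summit at the same base. The next in both lists were chr5:60042802-60043082 (15.9 in WT, 17.4 in KO), 1765866 bp away, and chr8:6813631-6814234 (16.8 and 14.2), 1708685 bp away.

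The set was sparse along the genome but lay among other peaks. The median spacing between neighbouring summits of the set was 318286 bp (296137 to 337582) in WT and 398053 bp (368558 to 425302) in KO. A peak of any kind was near in both: the nearest lay at a median of 3230 bp (WT) and 3230.5 bp (KO), while all autosomal peaks had 3224 and 3467.5 bp. Few stood alone, with no other peak within 50 kb for 1.90% (all peaks 2.61%) in WT and 1.78% (all peaks 2.64%) in KO. Narrow lower-summit peaks were alone more often, at 3.48% and 3.52%, above the intervals of the set.

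The closest neighbours within the set were under 500 bp apart. A pair within Grk5, a kinase of G protein-coupled receptors, was 424 bp apart in WT and 425 bp in KO, and a pair within Rab3c, a gene of vesicle release, was 448 and 386 bp apart. Both pairs belonged to the set in both lists. The closest in KO, 359 bp apart, lay beside Ptgs1, which encodes a cyclooxygenase, and 1 of its peaks paired with a lower-summit WT peak.

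At 1 Mb scale, 1472 of 2333 WT windows with a peak and 1291 of 2270 KO windows held at least 1 narrow high-summit peak. The largest number, 10, was found in WT in a window of chromosome 15 with Pcbp2, Rarg, Sp7 and Calcoco1, where KO had 8. Rarg encodes a retinoic acid receptor and Sp7 an osteoblast factor. Another window with 10 in WT, on chromosome 2 around Plcb4, held 3 in KO. In the other direction a window on chromosome 8 around Hook2, Lyl1 and Cacna1a held 10 in KO and 3 in WT. Of all kinds, the chromosome 15 and 2 windows held 141 and 63 WT peaks, and the chromosome 8 window 158 KO peaks.

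By gene, Tpd52 had the most, 5 in WT and 4 in KO, followed by Calcoco1 with 4 in each. Filip1l and Mbnl1, the latter a splicing regulator, each had 5 in WT and 2 in KO. Nrd1 had 4 and 3, Csrp1, a LIM protein gene of contractile cells, 3 and 3, Kcnn3 4 and 2, and Mbnl2 2 and 4. Peaks of any kind numbered 20 (WT) and 16 (KO) at Tpd52, 11 in each at Calcoco1, 43 and 36 at Filip1l and 46 and 40 at Mbnl1. They numbered 17 and 15 at Nrd1, 13 in each at Csrp1, 16 and 13 at Kcnn3 and 22 and 29 at Mbnl2. The counts of the set were not adjusted for these numbers. None of these 8 genes had a narrow high-summit peak without an overlapping peak in the other list.

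Nearly every narrow high-summit peak shared 1 bp or more with a peak called in the other genotype. In WT 3262 of 3308 did, 98.6% (98.1 to 99.0), and in KO 2572 of 2590, 99.3% (98.9 to 99.6). The shares for all autosomal peaks were 80.1% and 86.4%, for narrow lower-summit peaks 70.2% and 79.6%, and for wide high-summit peaks 99.6% in both lists. Wide lower-summit peaks shared 93.2% and 95.1%. Sharing was thus higher with a high summit in both width classes and, at lower summits, higher for wide peaks. Width was not matched within a class, and narrow lower-summit peaks were narrower than the set, so width and summit are not separated here. Among peaks with an overlapping peak, 73.4% (71.9 to 74.9) of WT and 74.6% (72.8 to 76.2) of KO summits lay within 25 bp of its summit. The shares were 63.3% and 63.1% over all such autosomal peaks, and 66.7% and 66.6% over the wide high-summit ones. The median shift of the set was 7 bp in both lists.

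The overlapping peak was often in another class. It was itself a narrow high-summit peak for 1006 peaks, which is 30.4% (28.8 to 32.0) of the WT set and 38.8% (37.0 to 40.7) of the KO set; over all autosomal peaks the share was 2.46% and 3.37%. A further 814 WT peaks, 24.6%, met a wide high-summit peak in KO, and 1297, 39.2%, met a narrow lower-summit KO peak. In KO the corresponding numbers were 756, 29.2%, and 726, 28.0%. An overlapping high-summit peak of any width was found for 55.0% (all peaks 24.6%) of the WT set and 68.0% (all peaks 28.8%) of the KO set. Wide high-summit peaks had one more often than the set, at 82.31% in WT and 87.03% in KO. The rule itself selects on summit p, so the contrast with all peaks is given as a description. Where the counterpart of a peak of the set was narrow and lower-summit, its median summit percentile was still 65.1 in KO and 67.0 in WT.

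Membership in both lists went with the height of the summit, as the cut-off on column 8 in the other list makes likely, so it is given as a description. From the lowest to the highest quartile of the WT set by summit p, the share with a narrow high-summit counterpart went from 17.3% through 22.4% and 34.8% to 47.2%. In KO it went from 25.9% through 33.5% and 41.6% to 54.3%. The narrowest peaks, at most 300 bp wide, numbered 82 in WT and 42 in KO, and every one of them had an overlapping peak in the other list. Their counterpart was in the set for 35.4% and 66.7%.

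**Figure D4:**
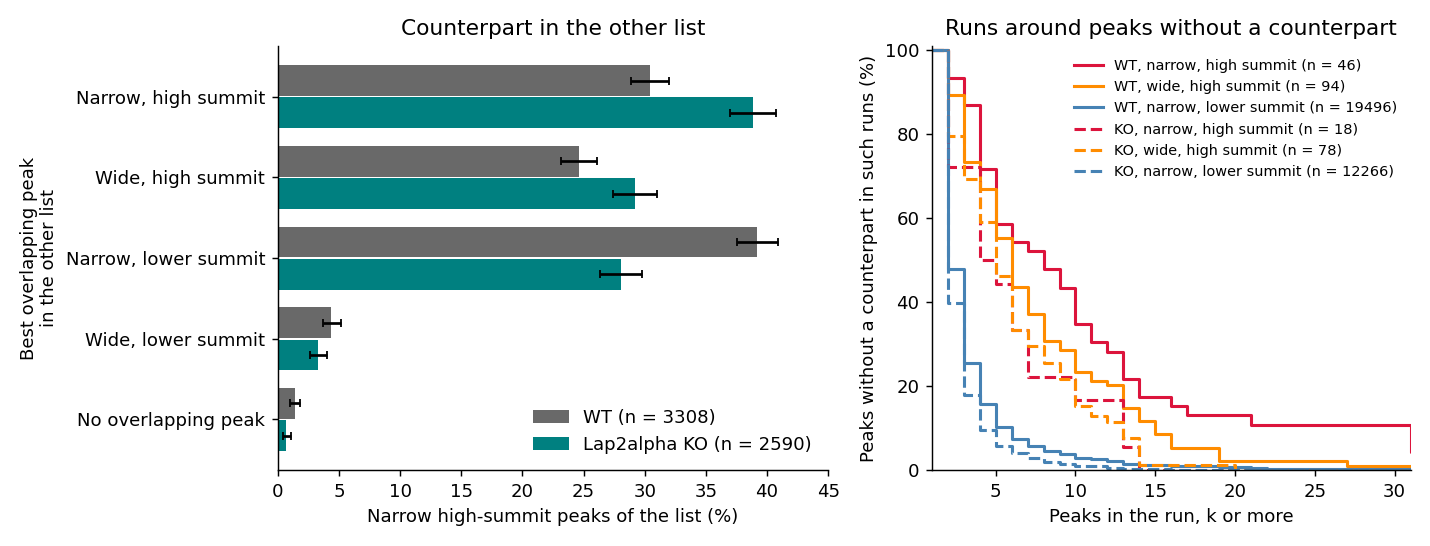
Left, class of the best overlapping peak in the other list (vertical axis) as a share of narrow high-summit peaks (horizontal axis, %), with 95% exact binomial intervals. Right, share of peaks without a counterpart (vertical axis, %) that lie in runs of k or more consecutive peaks without one (horizontal axis). At 5 or more, narrow high-summit peaks stand at 58.7% in WT and 44.4% in KO, close to wide high-summit peaks and above other narrow peaks.

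A counterpart was missing for 46 WT peaks, 1.39%, and 18 KO peaks, 0.69%. The highest in WT lay 14759 bp from Car3, a carbonic anhydrase gene, at chr3:14848618-14849208 with a summit −log10 p of 17.4. The second, at 16.6, lay 79866 bp from Sulf1, which edits heparan sulfate outside the cell, and the third, at 15.5, was at chr8:65361308-65361906 in a gene desert. The highest in KO was at chr6:112261012-112261689, 12428 bp from Lmcd1, a LIM-domain gene of muscle and heart, at 16.8. Another KO peak without a counterpart lay within Col22a1, a collagen gene, at 14.1 (chr15:72145374-72145923). The median distance of these peaks to a gene end was 84917 bp in WT and 50555.5 bp in KO.

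Most of the peaks without a counterpart stood next to another peak without one, and 3 of 46 in WT and 5 of 18 in KO did not. Their median distance to the nearest peak of the other list was 63178 bp in WT, with 41 of 46 over 10 kb away, and 10310.5 bp in KO, with 9 of 18 over 10 kb away. The nearest peak of their own list was much closer, at a median of 5074.5 bp in WT and 5595.5 bp in KO. Of the 46 WT peaks, 27 lay in a run of at least 5 consecutive WT peaks that all lacked an overlapping KO peak, 58.7% (43.2 to 73.0). Among all WT autosomal peaks without a counterpart the share was 10.8%, and among wide high-summit ones 55.3%. In KO 8 of 18 lay in such runs, 44.4% (21.5 to 69.2), against 6.45% of all KO peaks without a counterpart and 46.2% of wide high-summit ones. Wide high-summit peaks without a counterpart thus lay in such runs at a similar share.

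The runs could be long. The longest around a WT narrow high-summit peak held 31 peaks over 874 kb at chr1:11738500-12612617, with 2 of the set, 4 wide peaks and no KO peak inside. On chromosome 6, 30 consecutive WT peaks over 4459 kb (chr6:77257823-81716674) included 3 of the set. That region holds the Reg genes, which encode secreted lectins of gut and pancreas, and Lrrtm4, a synaptic adhesion gene, and 1 KO peak. A run of 20 peaks at chr5:69613321-72156032 spans Gabrg1, Gabra2, Gabra4 and Gabrb1, subunits of the GABA-A receptor. The Car3 peak was in a run of 7 (chr3:14787171-14862211). In KO the longest was the run of 13 peaks over 116 kb at Lmcd1 (chr6:112246552-112362910), of which 6 were wide, followed by 12 peaks over 83.2 kb beside Col22a1 (chr15:72117929-72201150). In all, the 46 WT peaks fell into 40 runs, 37 of them without any KO peak inside, and the 18 KO peaks into 18 runs without a WT peak inside. Runs of 1 peak, 3 in WT and 5 in KO, could not hold a peak of the other list by definition. The libraries could not be looked at singly, and what these runs go with was not tested.

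A few narrow peaks had summits far above the rest. At a summit −log10 p of at least 22 the WT list had 32 autosomal peaks, of which 11 belonged to the set, and the KO list 32, of which 10 did. The highest was at chr9:35305170-35305638, between genes 29519 bp from Rpusd4, at 25.6 in WT and 25.5 in KO. The next 3 loci followed at nearly the same height, chr2:98664913-98665268, chr12:3109822-3110220 and chr6:103649003-103649342, at 25.6, 25.6 and 25.4 in WT and 25.5 each in KO. The others in both lists were chr3:5860289-5860878 (24.4 and 24.5), chr11:109011595-109012172 (24.3 and 24.7), chr12:97061387-97061831 (24.2 and 24.4) and chr5:146260935-146261411 (23.4 and 24.2). They were completed by chr16:11143864-11144359 (23.4 and 24.1) and chr9:123461797-123462242 (22.8 and 23.4), the last 639 bp from an end of Lars2, the mitochondrial leucyl-tRNA synthetase gene. The 11th WT locus, within Filip1l at chr16:57391071-57391748 (23.4), met a KO peak of 1723 bp and 24.3, which was too wide for the set.

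The 10 loci in both lists thus kept their summits within 1 unit of −log10 p of each other, and 9 of the 11 WT loci were more than 10 kb from a gene end. The next WT peak of the set stood at 19.3, so a gap separated these loci from the rest of the set. Their signal percentiles ran from 85.1 to 94.5 in the 10 highest of WT. No annotation of repeats, mappability or excluded regions was used here.

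The chromosomes differed. Of 4698 pairs of best overlapping peaks with at least 1 narrow high-summit peak, 1006 had both peaks in the set, 2192 the WT peak only and 1500 the KO peak only. This choice by column 8 fixes part of the direction, so the shared peaks of all kinds are given beside it. The summit percentile was higher in KO in 41.1% of these pairs, against 43.3% of all 79128 shared autosomal pairs, and the median difference, KO minus WT, was −2.09 percentile points against −1.48. On chromosome 19 the median was −14.1 points, with 16 of 154 pairs higher in KO (all shared pairs −11.3), and on chromosome 4 it was −7.79 (all −6.92). On chromosome 18 it was 8.26, with 127 of 159 pairs higher in KO (all 6.16), on chromosome 15 3.59 (all 2.07) and on chromosome 14 2.93 (all 1.26). The order was the same over shared peaks of all kinds at these 5 chromosomes, so shared peaks as a whole showed it too. Chromosome 6 did not keep its place in the order. It was at 1.69 in these pairs, below chromosomes 15 and 14, and at 3.22 over all shared pairs, above both.

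The number of peaks in the set went the same way on some chromosomes and not on others. It went from 115 in WT to 73 in KO on chromosome 19, from 224 to 144 on chromosome 1 and from 200 to 134 on chromosome 4. It went from 87 to 106 on chromosome 18 and from 107 to 122 on chromosome 14, the 2 autosomes with more in KO. On chromosome 15 it went from 180 to 149 and on chromosome 6 from 163 to 131, although the median percentile difference was above 0 on both. The whole lists moved too, with KO at 78.8% of the WT peak number on chromosome 19 and at 110.5% on chromosome 18. With 1 list per genotype, a difference of genotype and a difference between the cultures or libraries cannot be told apart.

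**Figure D5:**
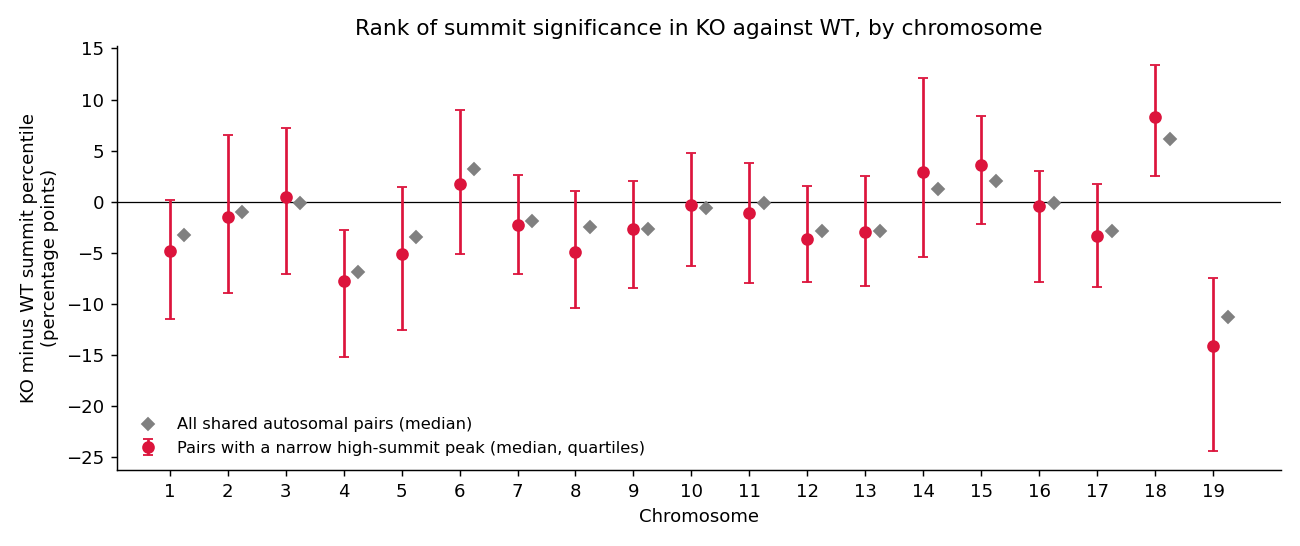
Difference in summit percentile, KO minus WT (vertical axis, percentage points), by chromosome (horizontal axis) for pairs with at least 1 narrow high-summit peak (points, median with quartiles) and for all shared autosomal pairs (diamonds, median). Chromosome 19 stands lowest at −14.1 points and chromosome 18 highest at 8.26, and the diamonds lie on the same side of 0 there.

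Pairs in the set on both sides differed little. Among the 1006, the median difference was −0.27 points (quartiles −3.92 and 2.51), and 952, or 94.6%, were within 10 points. The median summit shift was 6 bp and the median absolute width difference 38.5 bp. Since both peaks had to be high-summit, large differences could not enter. The largest falls were beside Mfsd13a on chromosome 19 (18.1 in WT, 13.6 in KO), Ccnc, the cyclin C gene (17.5 and 13.7), a locus over 100 kb from a gene end at chr15:23581847-23582444 (17.7 and 14.1), and Kl, the klotho gene (17.0 and 14.1). The largest rises were beside Dok2, an adaptor of tyrosine kinase signalling (14.2 in WT, 17.6 in KO), and Diaph1, a formin that builds actin filaments (13.5 and 16.5).

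Gene groups were described by how many genes had a narrow high-summit peak assigned, that is, were the nearest gene within 100 kb. Over all 20661 autosomal protein-coding genes this was 11.1% in WT and 9.3% in KO. Gene length and spacing set how many peaks a gene can receive, and neither was matched here. The fibroblast identity genes had 4 of 13 in WT and 6 of 13 in KO. The WT peak assigned to Thy1, a surface marker of fibroblasts, lay 90084 bp away between genes. It stood at 15.5 and its KO counterpart at 15.4. The KO peak assigned to Dcn (decorin), 69390 bp away between genes, stood at 15.9 and met a wide WT peak at 14.7. The KO peak within Prrx1, at 14.5, met a wide WT peak at 14.9. The KO peak 12152 bp from Vim (vimentin), at 16.4, met a narrow WT peak at 10.6.

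Collagen genes had 10 of 42 in WT and 12 of 42 in KO. A WT peak within Col12a1, a fibril-associated collagen, stood at 17.96, with a wide KO counterpart at 16.7. Col19a1 (17.0 in WT, 14.9 in KO) and Col8a1 (15.80 and 14.03) had narrow high-summit peaks in both lists. Of the TGF-beta pathway, 4 of 16 genes in WT and 3 in KO had such a peak. The peak within Smad3, the receptor-activated transcription factor, was among the highest of named genes, at 19.05 in WT and 18.89 in KO (chr9:63743671-63744361 in WT). A WT peak 196 bp from an end of Tgfbr1, a receptor gene, stood at 14.6 with a KO counterpart at 13.3.

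YAP, TEAD and SRF target genes had 5 of 20 in WT and 8 of 20 in KO. The KO peak within Yap1, itself the co-activator, stood at 15.5 with a wide WT counterpart at 16.4. The WT peak 14240 bp from Ccn2, a secreted matrix regulator, stood at 15.1 with a wide KO counterpart at 16.1. Genes of AP-1 factors had 2 of 15 in WT and 5 of 15 in KO. Fos had a narrow high-summit peak in both lists (15.7 and 14.7), 42482 bp away in WT. Jun had a KO peak at 14.4, 3708 bp away, whose WT counterpart was at 11.6.

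The Rb and E2F pathway, which Lap2alpha is known to act on, had 6 of 23 in WT and 5 of 23 in KO. The D-type cyclin genes Ccnd3 (14.7 in WT, 13.7 in KO) and Ccnd1 (13.8 and 14.7) had a peak of the set in both lists. Ccnd2 had one in KO (15.0) with a WT counterpart at 13.3, just under the WT threshold. Nuclear lamina and envelope genes had 1 of 16 in WT and 2 in KO. The WT peak was 6716 bp from Lmna, the A-type lamin gene, at 15.5 with a wide KO counterpart at 16.7. The KO peaks were 4310 bp from Tor1aip1, which encodes the lamin-binding protein LAP1, with the summit inside the neighbouring Tor1aip2, and near Lemd2, a LEM-domain gene. Both had wide WT counterparts.

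Of the other groups, Hox genes had 2 of 39 in WT and 1 in KO, and Hoxb4 had a narrow high-summit peak at a gene end in both (15.5 in WT, 15.9 in KO). Ribosomal protein genes had 5 of 80 in each list, replication-dependent histone genes 1 of 65 and housekeeping genes 1 of 13 in each, and CTCF and cohesin genes 1 of 11 in each. Olfactory receptor genes had 9 of 1104 in WT and 6 in KO, clustered protocadherins 0 and 1 of 57, and Zfp genes 26 and 30 of 388, all under the share over all genes in both lists. Imprinted genes had 4 and 3 of 21, and solute carriers 43 and 32 of 334 (12.9% and 9.58%).

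Markers of other cell types were checked by any peak within 1 kb of a gene end, narrow or not. Over all 20661 autosomal protein-coding genes, 10592 had one in WT and 10331 in KO. Fibroblast markers had one for 12 of 13 genes in WT and 11 in KO. Keratinocyte markers had 3 and 2 of 8, leukocyte markers 1 and 3 of 7, endothelial markers 2 and 2 of 6, Schwann cell and melanocyte markers 2 and 2 of 6, and muscle markers 1 and 1 of 6. Narrow high-summit peaks were also assigned to some of these: 1 and 1 of 8 keratinocyte, 1 and 1 of 7 leukocyte, 1 and 2 of 6 endothelial, 1 and 0 of 5 autosomal Schwann cell and melanocyte, and 2 and 0 of 6 muscle markers. The shares of muscle markers in WT and endothelial markers in KO, 33.3% each, stood beside 30.8% and 46.2% of fibroblast genes, on very few genes. Examples were 1 within Trp63, a keratinocyte factor, in both lists (14.9 and 13.7), and 1 in WT within Spi1, a myeloid factor (15.6). Another lay in WT within Mitf, a melanocyte factor (17.2). The Spi1 and Mitf peaks overlapped wide high-summit KO peaks at 14.9 and 18.3. Peaks show accessible DNA and not expression.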

How the data were processed

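Accessibility was measured in 3 WT and 3 Lap2alpha KO libraries, and the authors deposited 1 combined list per genotype; the depth of the libraries is unknown. Bowtie2 2.5.1, Genrich, deepTools 3.5.1 and the build GRCm38 are named per the submitters' processing notes. Genrich settings, Tn5 shift and filters on duplicates or regions are not given in the sources used here, and each could move widths and summits. The deposited columns are a score capped at 1000, a signal, and −log10 p and −log10 q values at the peak; only the −log10 p and the signal were used, as ranks or as deposited. Gene ends and promoters came from RefSeq (GRCm38.p6), and chromosome 18 was not analysed here for start sites and motifs. Counterparts were the peak with the longest overlap. Python 3.11.15, pandas 2.3.3 and scipy 1.17.1 were used; the overlap was tested on simulated data, where 84890 of 106132 peaks were found shared, the number bedtools 2.31.1 found. No p-values were computed. Named peaks were the highest by summit, the highest without a counterpart, those at the limits, the farthest and the closest, the genes with most peaks, and up to 4 genes per list. The rule, the gene lists and the motifs were chosen with earlier results of these data known. The runs of peaks without a counterpart, the shift among peaks with a counterpart and the sequences printed were chosen after seeing the data. Alternatives changed the width limit, the summit cut-off, the overlap, the gene-end distance and the gene set.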

Additional observations from a re-analysis of the deposited data

How the results depend on the processing

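No paired analysis was possible because each genotype has 1 combined list, and for the same reason no library could be left out. Of 60 alternatives, 23 stayed within the counting interval (or 1.5 times, for numbers) and 37 did not. Values are WT then KO. With a width limit of 500 bp the set had 856 and 573 peaks, a spacing of 1531644 and 2091169.5 bp and 5.61% and 7.16% at a gene end, with a WT median distance of 18190.5 bp. With 1000 bp it had 9120 and 7905 peaks, a spacing of 96688 and 103363 bp, 10.2% and 11.7% at a gene end, a WT median distance of 18844 bp and a counterpart in the set for 47.7% and 55.0%. With the top 10% by summit p it had 245 and 199 peaks, a spacing of 5220634 and 5547340.5 bp, a WT overlap of 99.2%, a WT median distance of 27908 bp and a KO gene-end share of 11.6%. With signal in place of summit p it had 1021 and 651 peaks. A reciprocal overlap of 50% lowered sharing to 88.5% and 89.1%, and summits at most 100 bp apart to 96.2% and 96.0%. The gene-end share was 5.17% and 6.25% within 500 bp, 11.6% and 13.7% within 2 kb, and 12.3% and 14.1% with all genes of the annotation, where the median distance was 8788 and 7771.5 bp. Equal list lengths and a cut-off set on autosomal peaks alone moved no value past these limits; nor did the 2 settings chosen after seeing the data. Number and spacing therefore describe the rule.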
